A study of Mus musculus with 2 samples.

Results

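The regions described here are 2846 stretches of the mouse genome that carried an Hdac2 island but no Hdac1 island, outside protein-coding genes yet within reach of one. An island is a run of neighbouring windows in which the authors' caller counted more ChIP reads than in background. Of 20307 Hdac2 islands 19450 lay on chromosomes 1 to 19, and 7463 of these (38.4%) shared no base with any of the 29695 Hdac1 islands on the same chromosomes. From these 7463, the 2846 were those that overlapped no protein-coding gene span extended by 1 kb and had the nearest such span at most 100 kb away. The other Hdac2 islands without Hdac1 were 1913 at or in genes and 2704 in gene deserts, over 100 kb from any gene. The regions were chosen by presence in the Hdac2 list and absence from the Hdac1 list, so their widths, values and distance limits are descriptions. "Between genes" means between protein-coding genes, since 457 of the 2846 overlapped a long non-coding RNA gene, a pseudogene or another gene type.

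Both libraries came from wild-type nephron progenitor cells, isolated from E16.5 mouse kidneys and cultured before crosslinking. There was 1 library with 1 µg of an Hdac2 antibody and 1 library with 0.5 µg of an Hdac1 antibody, so antibody and amount changed together. Strain, sex and number of embryos were not given in the sources used here. Neither antibody was replicated and the files hold no read counts, so depth is unknown and no difference below was tested. All 95% intervals cover counting error only. Six2, the homeobox gene that defines nephron progenitors, lay under an Hdac2 island of 18.2 kb (4.76e-26) and an Hdac1 island of 17.4 kb, although an island is not a measure of expression.

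Hdac1 and Hdac2 are closely related class I histone deacetylases, enzymes that remove acetyl groups from histone tails. They have no DNA-binding domain of their own and are brought to chromatin in the Sin3, NuRD and CoREST complexes by transcription factors. Nephron progenitors are mesenchymal cells around the ureteric bud tips that renew themselves and form the nephron epithelium, and in mice Hdac1 and Hdac2 together are needed in them for normal nephron formation. Sequence between genes holds distal enhancers and silencers, and also long non-coding RNA genes, pseudogenes and repeats.

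A reference genome was not used here, so the sequences that can be shown are start windows of annotated genes from RefSeq (GRCm38.p6, the assembly of mm10), from 250 bases before to 50 bases after a transcription start. Of the 2846 regions 20 contained such a window whole, and all 20 genes were annotated as lncRNA. The CpG dinucleotide, the site of DNA methylation in mammals, is in capitals (CG, which reads the same on both strands). Of all 31396 windows of chromosomes 1 to 19, 94.8% held at least 1 CG, and 18 of the 20 did (90%). The first 3 windows are shown because they lie in dense groups of regions and have near copies elsewhere in the annotation, and the fourth because it lies in a narrow region with no near copy.
Gm46428, chr13:66519416-66519715, + strand: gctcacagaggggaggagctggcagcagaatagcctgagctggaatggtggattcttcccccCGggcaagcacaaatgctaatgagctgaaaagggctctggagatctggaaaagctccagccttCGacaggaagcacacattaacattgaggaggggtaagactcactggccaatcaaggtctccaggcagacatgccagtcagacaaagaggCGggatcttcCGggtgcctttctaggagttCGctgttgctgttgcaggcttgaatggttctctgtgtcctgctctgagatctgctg
Gm3015, chr14:42768642-42768941, - strand: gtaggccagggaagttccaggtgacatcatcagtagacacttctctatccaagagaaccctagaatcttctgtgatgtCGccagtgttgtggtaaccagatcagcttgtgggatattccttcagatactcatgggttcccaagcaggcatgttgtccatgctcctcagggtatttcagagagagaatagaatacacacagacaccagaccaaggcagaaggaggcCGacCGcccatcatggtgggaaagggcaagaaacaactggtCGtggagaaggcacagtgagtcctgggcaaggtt
Gm46466, chr14:4695806-4696105, + strand: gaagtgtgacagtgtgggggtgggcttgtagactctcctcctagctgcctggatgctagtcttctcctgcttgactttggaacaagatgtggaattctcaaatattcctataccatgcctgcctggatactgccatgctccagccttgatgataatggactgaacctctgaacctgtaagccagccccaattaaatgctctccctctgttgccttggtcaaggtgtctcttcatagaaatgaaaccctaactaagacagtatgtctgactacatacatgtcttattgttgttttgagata
Gm34568, chr4:88956166-88956465, + strand: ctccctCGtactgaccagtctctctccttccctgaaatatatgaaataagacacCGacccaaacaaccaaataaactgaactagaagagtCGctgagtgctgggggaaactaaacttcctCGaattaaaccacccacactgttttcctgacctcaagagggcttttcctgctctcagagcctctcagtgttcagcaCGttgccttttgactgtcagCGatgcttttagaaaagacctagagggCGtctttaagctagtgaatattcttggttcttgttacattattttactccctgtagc
For contrast, the next windows come from the strongest island with a whole window among Hdac2 islands shared with Hdac1 (Gm10685) and among Hdac1 islands without Hdac2 (B930059L03Rik), both between genes and within 100 kb of one.
Gm10685, chr3:96457010-96457309, + strand: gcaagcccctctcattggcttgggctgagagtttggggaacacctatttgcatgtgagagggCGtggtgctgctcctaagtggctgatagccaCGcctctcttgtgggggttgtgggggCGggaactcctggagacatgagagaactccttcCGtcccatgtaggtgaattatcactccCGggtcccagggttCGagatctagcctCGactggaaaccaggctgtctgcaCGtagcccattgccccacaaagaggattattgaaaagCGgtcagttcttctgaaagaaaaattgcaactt
B930059L03Rik, chr12:110591124-110591423, + strand: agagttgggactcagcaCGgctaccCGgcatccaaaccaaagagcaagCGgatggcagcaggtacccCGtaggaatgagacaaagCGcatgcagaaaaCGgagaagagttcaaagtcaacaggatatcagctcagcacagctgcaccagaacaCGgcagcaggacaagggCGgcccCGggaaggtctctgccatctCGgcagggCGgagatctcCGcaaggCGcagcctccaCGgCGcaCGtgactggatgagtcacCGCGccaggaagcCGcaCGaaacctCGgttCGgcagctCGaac

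The windows inside Hdac2 regions without Hdac1 had less CpG than those in either other class, by the medians below, but not less than windows outside islands. Gm46466 held 0 CG, Gm3015 held 4, Gm46428 held 5 and Gm34568 held 7. The windows in the shared island at Gm10685 and the Hdac1 island at B930059L03Rik held 9 and 23. These contrast windows were picked by another rule, the strongest island. Among the 20 genes, windows not shown held up to 19 CG (LOC108167564), with 12 at Gm46429. Across 1 window per gene, the median ratio of observed to expected CpG was 0.272 (quartiles 0.166 and 0.468) in the 20 genes of the Hdac2 regions without Hdac1. It was 0.499 in 158 genes of shared islands, 0.428 in 212 genes of Hdac1 islands without Hdac2, and 0.207 in 3780 genes whose windows lay whole in none of these islands. A ratio of 0.6 or more, a usual mark of a CpG island, was reached by 2 of 20 windows (10%, 95% Wilson interval 2.79% to 30.1%) in the Hdac2 regions without Hdac1. Shared islands had 67 of 158 (42.4%, 35.0% to 50.2%), and Hdac1 islands without Hdac2 had 59 of 212 (27.8%). Among genes whose windows lay whole in none of these islands it was 153 of 3780 (4.05%, 3.46% to 4.72%). The start windows in Hdac2 regions without Hdac1 therefore lay closer in CpG content to windows outside islands than to those in either other class.

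**Figure D1:**
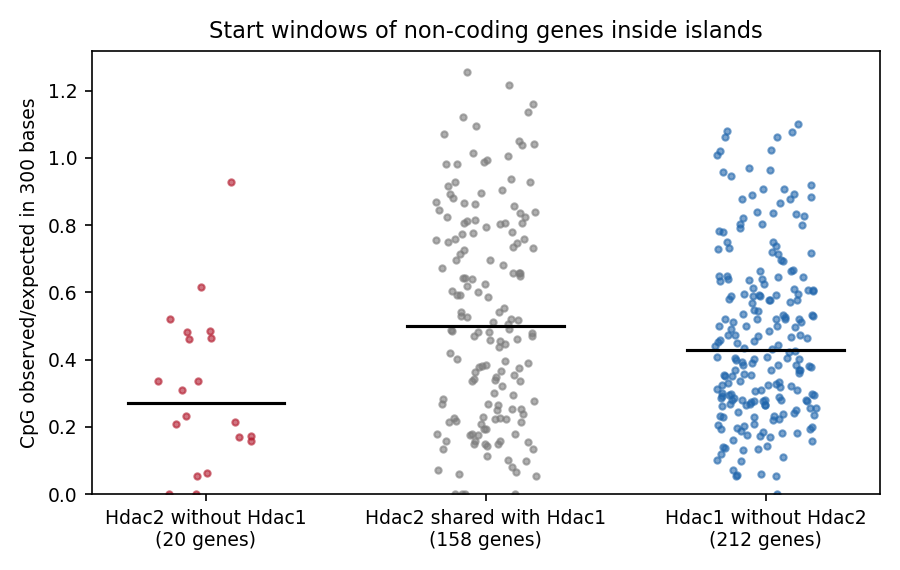
Ratio of observed to expected CpG in the 300-base start windows of non-coding genes that lie whole inside an island (y axis), 1 point per gene, with the median as a black line. The 20 windows in Hdac2 islands without Hdac1 have a median of 0.272, against 0.499 in 158 windows of shared islands and 0.428 in 212 windows of Hdac1 islands without Hdac2.

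Start windows were also scarce in these regions. The 20 regions with a whole window were 0.703% of 2846 (0.455% to 1.08%), against 150 of 2060 shared islands (7.28%) and 200 of 3964 Hdac1 islands without Hdac2 (5.05%). Per Mb of island the counts were 1.88 windows in Hdac2 regions without Hdac1, 33.6 in shared islands and 35.7 in Hdac1 islands without Hdac2. Eligible sequence held 6.24 windows per Mb. Eligible sequence here means all sequence of chromosomes 1 to 19 that lies 1 to 100 kb from the nearest protein-coding gene and outside Hdac1 islands, 719 Mb in all, with assembly gaps left in. Hdac2 regions without Hdac1 thus held fewer starts per Mb than the sequence they were drawn from, and both Hdac1-bearing classes held more.

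Some of these windows occur in near copies. Within 30 edits, another annotated window was found for 6 of the 20 genes (30%, 14.5% to 51.9%). It was found for 3 of 158 genes in shared islands (1.90%) and 2 of 212 in Hdac1 islands without Hdac2 (0.943%). Among genes whose windows lay whole in none of these islands it was 86 of 3780 (2.28%). The window of Gm3015 was identical to that of Gm17027 and differed by 1 edit from that of Gm8082, both lncRNA genes elsewhere on chromosome 14. The window of Gm46428 had its nearest copies at Gm31714 (21 edits), Gm46425 (22 edits) and 2410141K09Rik (26 edits), protein-coding genes on chromosome 13. The sources used here do not say how reads that match several places were treated, and the part of such reads in the results was not tested.

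Hdac2 regions without Hdac1 were broad. Their median width was 3.8 kb (quartiles 3.0 and 4.8 kb, range 0.2 to 29.8 kb), against 2.2 kb in shared islands and 1.6 kb in Hdac1 islands without Hdac2 at the same kind of position. Together they covered 11.7 Mb. Widths over 3 kb and up to 5 kb made up 1439 of the 2846 (50.6%), and 22 were 1 kb or less (0.773%). Widths of 1 kb or less were commoner in the other classes, with 270 shared islands (13.1%) and 1103 Hdac1 islands without Hdac2 (27.8%). The Hdac2 islands without Hdac1 in gene deserts and those at or in genes had the same median width of 3.8 kb.

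Each island carries the authors' p-value, or possibly q-value, and a lower value marks a stronger island within its list. The 2846 regions ran from 1.34e-59 to 0.0963 with a median of 4.34e-08, against 8.60e-09 in the shared islands of the same list. They made up 96 of the 1947 Hdac2 islands in decile 1, the strongest (4.93%), and 357 of 1950 in decile 6 (18.3%). In decile 10, the weakest, they were 309 of 1941 (15.9%). The regions were thus few among the strongest Hdac2 islands, and from decile 3 on their share stayed between 14.1% and 18.3%.

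The strongest region lay on chromosome 8 from 20691801 to 20712200, 45.1 kb from Gm21119, and measured 20.4 kb (1.34e-59, place 72 in the whole Hdac2 list). The next was also the widest, 29.8 kb on chromosome 8 from 20014201 to 20044000, 78.9 kb from 9530057J20Rik (1.72e-35). Another wide region of 25.4 kb (2.54e-19) lay in the same stretch of chromosome 8, from 20812201 to 20837600, 55.1 kb from the beta-defensin gene Defb33. Beta-defensins are antimicrobial peptides of epithelia. These 3 regions lay within a single stretch of the chromosome, and the nearest Hdac1 islands were 12.6, 32.2 and 133 kb away.

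Other strong regions stood near genes of known function. A 17.8 kb region on chromosome 11 from 60606201 to 60624000 (3.86e-28) was 47.7 kb from Alkbh5, which removes methyl groups from RNA. A 6.2 kb region on chromosome 9 from 32839401 to 32845600 (3.70e-27) was 81.6 kb from Ets1, a transcription factor of blood and endothelial cells. A 19.2 kb region on chromosome 4 from 41878201 to 41897400 (6.69e-27) lay 6.21 kb from the chemokine gene Ccl21d. Near Orc5, a subunit of the complex that marks replication origins, 7.6 kb on chromosome 5 from 22456601 to 22464200 reached 1.29e-26 at a distance of 22.3 kb. On chromosome 9 from 123743801 to 123749400, 5.6 kb reached 1.67e-24, 17.8 kb from the chemokine receptor gene Ccr9. The region near Glipr1l1, on chromosome 10 from 112052001 to 112055200, was 3.2 kb wide and 4.99 kb away (6.12e-25).

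A pair of the 10 strongest regions were narrow. On chromosome 9 from 19575201 to 19575800, 0.6 kb had 1.80e-31 and lay 7.82 kb from the odorant receptor gene Olfr854. On chromosome 1 from 12644601 to 12645000, 0.4 kb had 3.46e-25 and lay 47.2 kb from Sulf1, which encodes an enzyme that trims sulfate from heparan sulfate outside the cell. The rest of the 5 widest were 26.8 kb on chromosome 1 from 84987401 to 85014200 near Slc16a14 (1.95e-09), 20.8 kb on chromosome 13 from 65477601 to 65498400 near Gm19428 (6.18e-21), and 20.6 kb on chromosome 8 from 55501801 to 55522400 near Gm51598 (1.75e-11).

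At the limit of 100 kb, the farthest region inside was 99.6 kb from Olfr267 (8.61e-08) and the next was 99.5 kb from Gm8882 (7.42e-23). Just outside were islands 100.016 kb from Msx1 (4.42e-07), a homeobox gene, and 100.087 kb from Slco6d1 (8.01e-05). At the limit of 1 kb the closest regions inside were 1.004 kb from Olfr1453 and 1.005 kb from 3110040M04Rik, and just outside were islands 0.989 kb from Gm3159 and 0.979 kb from Olfr761. The regions near Fam110c and Gm3476 touched an Hdac1 island without sharing a base. The smallest overlaps that put an Hdac2 island outside were 200 bp, near Llgl1, Gm19428 and Aldh1a2.

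The regions were sparse close to genes. Their median distance to the nearest protein-coding gene was 24.8 kb (quartiles 10.7 and 51.6 kb), against 23.6 kb for shared islands and 19.2 kb for Hdac1 islands without Hdac2. By island midpoint, Hdac2 regions without Hdac1 numbered 1.18 per Mb of eligible sequence at 1 to 5 kb from a gene, 4.12 at 5 to 10 kb, 4.46 at 10 to 20 kb, 4.53 at 20 to 50 kb and 4.33 at 50 to 100 kb. Hdac1 islands without Hdac2 had 5.49, 6.74, 6.00, 5.54 and 4.44 per Mb over the same distances, and shared islands were level beyond 5 kb at 2.93 to 3.15 per Mb. The nearest distance is affected by the rule itself, since a wide island must lie wholly beyond 1 kb. Over all distances the densities were 3.96 per Mb for Hdac2 regions without Hdac1, 2.87 for shared islands and 5.51 for Hdac1 islands without Hdac2. All were divided by the same eligible sequence. That sequence leaves out Hdac1 islands, so it does not hold the Hdac1 bases of the other classes and the densities are not on an equal base.

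**Figure D2:**
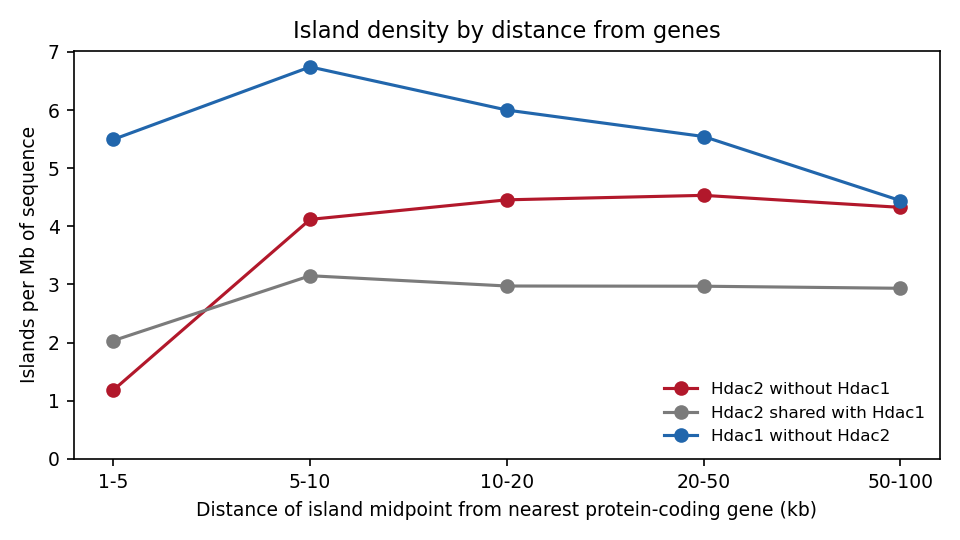
Islands per Mb of eligible sequence (y axis) by the distance of the island midpoint from the nearest protein-coding gene in kb (x axis). Hdac2 islands without Hdac1 stay between 4.12 and 4.53 per Mb beyond 5 kb, while Hdac1 islands without Hdac2 fall from 6.74 per Mb at 5 to 10 kb to 4.44 at 50 to 100 kb.

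The regions showed no clear side. Of the 2260 whose nearest gene has a known strand 1176 lay on the 5′ side (52.0%, 49.97% to 54.1%), against 49.7% of shared islands and 51.8% of Hdac1 islands without Hdac2. Within 10 kb of a gene it was 259 of 530 (48.9%, 44.6% to 53.1%). Strand was known for 16457 of the 20665 protein-coding genes.

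Hdac1 islands were often far away. The median distance from an Hdac2 region without Hdac1 to the nearest Hdac1 island was 49.6 kb (quartiles 17.2 and 133 kb). It was under 10 kb for 457 regions (16.1%, 14.8% to 17.5%) and over 100 kb for 890 (31.3%). From Hdac1 islands without Hdac2 to the nearest Hdac2 island the median was 25.2 kb, with 1034 of 3964 (26.1%) within 10 kb and 436 over 100 kb away, although the Hdac2 list is the shorter of the 2. In gene deserts 69.6% of the Hdac2 islands without Hdac1 were over 100 kb from an Hdac1 island.

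Non-coding genes were not favoured. Of the 2846 regions 457 overlapped a non-coding gene or pseudogene (16.1%, 14.8% to 17.5%), and such genes covered 14.4% of the bases in the regions and 15.8% of eligible sequence. Among shared islands 718 of 2060 overlapped one (34.9%), and among Hdac1 islands without Hdac2 1116 of 3964 did (28.2%). Most of the gap was in lncRNA genes, which 9.77% of the Hdac2 regions without Hdac1 overlapped, against 28.1% of shared islands and 24.8% of Hdac1 islands without Hdac2. Pseudogenes, copies of genes that have lost their function, ran the other way at 6.25% of Hdac2 regions without Hdac1, against 4.13% of shared islands and 2.35% of Hdac1 islands without Hdac2. No annotated miRNA lay in a region.

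The nearest genes differed by family. The pheromone receptor genes of the vomeronasal organ (354 genes) were nearest to 104 Hdac2 regions without Hdac1, to 6 shared islands and to 6 Hdac1 islands without Hdac2. Per Mb of eligible sequence nearest to these genes that was 6.07 Hdac2 regions without Hdac1 (95% Poisson interval 4.96 to 7.36), against 0.350 (0.129 to 0.763) for each other class. The odorant receptor genes of the nose (1104 genes) were nearest to 141 regions or 5.78 per Mb (4.86 to 6.82), against 0.205 (0.0665 to 0.478) for shared islands and 0.451 (0.225 to 0.807) for Hdac1 islands without Hdac2. Both families encode receptors of sensory neurons. Over all eligible sequence the densities were 3.96, 2.87 and 5.51 per Mb for Hdac2 regions without Hdac1, shared islands and Hdac1 islands without Hdac2. The classes are defined by the Hdac1 list, and both classes with an Hdac1 island were few near receptor genes. The gap between classes there is therefore not evidence of more Hdac2.

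The receptor genes named next were singled out after their values were seen. The strongest region near a vomeronasal receptor gene was 6.2 kb on chromosome 7 from 24026401 to 24032600, 22.2 kb from Vmn1r183 (1.20e-21), followed by regions near Vmn2r67 (5.18e-18) and Vmn2r96 (6.42e-17). Near odorant receptor genes, Olfr854 was followed by 13.4 kb near Olfr1257 on chromosome 2 (1.19e-16) and 5.4 kb near Olfr1505 on chromosome 19 (2.93e-16). The regions were spread over the families, with 78 vomeronasal and 127 odorant receptor genes nearest to at least 1 region. Median distances were 14.6 kb for vomeronasal and 9.49 kb for odorant receptor genes.

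Transcription factor genes of development had the lowest density among families with at least 10 Mb of such sequence. The 207 genes of the Hox, Pax, Lhx, Nkx, T-box, Sox, forkhead, Gata and related families were nearest to 25 Hdac2 regions without Hdac1, 56 shared islands and 107 Hdac1 islands without Hdac2. The densities were 1.77 Hdac2 regions without Hdac1 per Mb (1.15 to 2.62), 3.97 shared islands (3.00 to 5.16) and 7.59 Hdac1 islands without Hdac2 (6.22 to 9.17). Among the 25 were regions near Six4 (4.12e-11) and, in genes picked after their values were seen, near Foxn3 (1.17e-13, 42.1 kb away) and Sox11 (6.67e-12, 75.7 kb). Solute carrier genes, which encode membrane transporters, had 3.79 Hdac2 regions without Hdac1, 2.63 shared islands and 7.28 Hdac1 islands without Hdac2 per Mb. All genes outside the 12 families counted had 3.41 Hdac2 regions without Hdac1, 3.04 shared islands and 6.12 Hdac1 islands without Hdac2 per Mb.

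**Figure D3:**
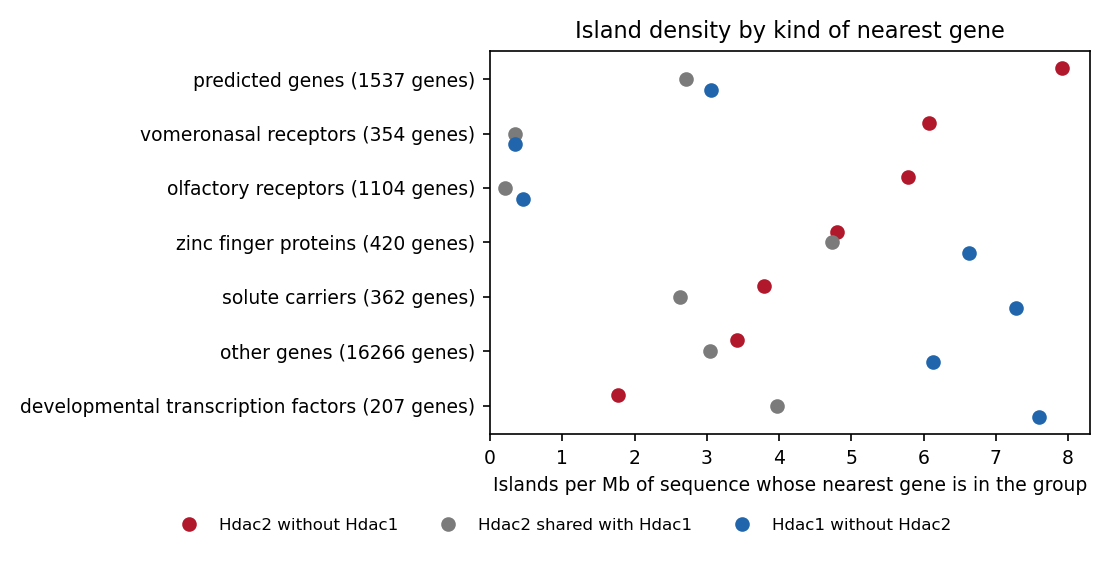
Islands per Mb of eligible sequence (x axis) by the kind of protein-coding gene that is nearest (y axis), for families with at least 10 Mb of such sequence. Hdac2 islands without Hdac1 reach 6.07 and 5.78 per Mb near vomeronasal and olfactory receptor genes, where the other classes stay at 0.451 or below, and 1.77 per Mb near developmental transcription factor genes, where Hdac1 islands without Hdac2 reach 7.59.

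Genes with provisional symbols (1537 genes, such as those beginning with Gm or ending in Rik) had the highest density, with 486 Hdac2 regions without Hdac1 or 7.91 per Mb, against 2.72 for shared islands and 3.06 for Hdac1 islands without Hdac2. Zinc finger protein genes, many of which encode repressors that bind DNA, had 4.80 Hdac2 regions without Hdac1, 4.73 shared islands and 6.62 Hdac1 islands without Hdac2 per Mb. Both densities of Hdac2 regions without Hdac1 leaned on a few places. Leaving out the 2 Mb bins with 10 or more regions, a step chosen after seeing the data, brought them to 4.50 per Mb near provisional genes and 2.81 near zinc finger genes. Without those bins vomeronasal receptor genes kept 5.88 per Mb and odorant receptor genes 5.34, so these densities did not rest on the dense bins.

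Dense places were few. A region fell in 896 bins of 2 Mb, with a median of 2 regions per bin, and 25 bins held 10 or more, 489 regions in all (17.2%). The same 25 bins held 83 shared islands and 51 Hdac1 islands without Hdac2. The bins named next were picked after their values were seen. The densest, on chromosome 4 from 60 to 62 Mb, held 44 Hdac2 regions without Hdac1, 1 shared island and 0 Hdac1 islands without Hdac2. On chromosome 14 the bins starting at 2, 4, 6, 40 and 42 Mb held 25, 27, 34, 28 and 38 regions, and on chromosome 13 those starting at 64 and 66 Mb held 33 and 24. A bin on chromosome 2 from 176 to 178 Mb held 29 and a bin on chromosome 4 from 42 to 44 Mb held 31.

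The densest bin is the cluster of major urinary protein genes (Mup), which encode small proteins made in liver that carry pheromones in mouse urine. Of 24 Mup symbols on chromosome 4, 18 were the nearest gene of a region. The 44 regions had a median width of 4.6 kb and values from 1.04e-17 to 0.00184, with a median of 9.52e-08. The strongest was 4.6 kb from 60703001 to 60707600, 29.8 kb from Mup12. Next came 6.4 kb from 60567201 to 60573600, 4.66 kb from Mup10 (1.41e-17), and 2.8 kb from 61166001 to 61168800, 55.5 kb from Mup13 (3.35e-14). The whole bin held 60 Hdac2 islands and 1 Hdac1 island.

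By chromosome, Hdac2 regions without Hdac1 ranged from 2.74 per Mb on chromosome 11 to 7.87 on chromosome 14. Chromosome 14 had 258 regions, or 168 for every 100 Hdac1 islands without Hdac2, and 5 dense bins held 152 of them. Chromosomes 4 and 13 followed with 5.28 and 4.96 per Mb. Chromosome 11 had 95 regions, the lowest density of the 19 chromosomes, and the highest density of Hdac1 islands without Hdac2 (8.94 per Mb). On chromosome 14 Hdac1 islands without Hdac2 stood at 4.70 per Mb and shared islands at 2.75 per Mb.

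**Figure D4:**
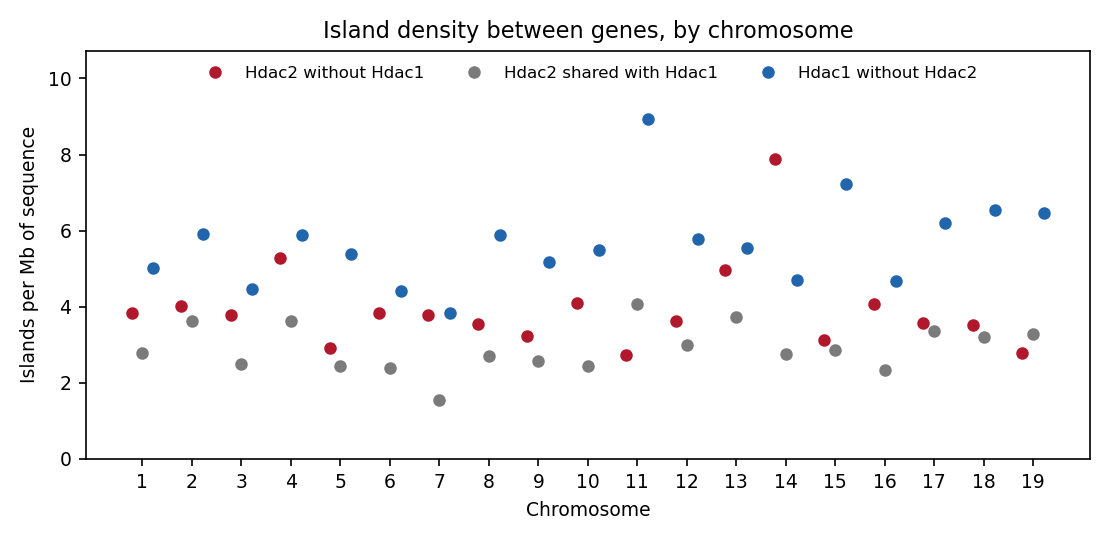
Islands per Mb of eligible sequence (y axis) on chromosomes 1 to 19 (x axis), with 1 point per class. Chromosome 14 has the highest density of Hdac2 islands without Hdac1 (7.87 per Mb) and is the only chromosome where they outnumber Hdac1 islands without Hdac2, while chromosome 11 has the lowest (2.74 per Mb).

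The intervals between neighbouring genes show the same grouping. Of 15699 intervals longer than 2 kb 2010 held a region, most of them (1493) exactly 1, and 34 held 5 or more. In 811 intervals, with 1092 of the regions (38.4% of all), there was no Hdac1 island. The richest interval, on chromosome 14 from 41967906 to 42254652 between LOC115486427 and Gm17026, held 13 regions of 1.2 to 7.4 kb in 287 kb, beside 3 Hdac1 islands. On chromosome 13 from 65420366 to 65545773, between Gm31714 and Gm19428, 10 regions covered 46.6% of 125 kb. The interval from 65699202 to 65897182 on chromosome 13, between Gm53057 and Gm17353, held 9 regions and 0 Hdac1 islands in 198 kb.

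Between Gm14410 and the zinc finger gene Zfp970, on chromosome 2 from 177206498 to 177464741, 9 regions lay among 16 Hdac2 and 5 Hdac1 islands. On chromosome 1 from 84935282 to 85088138, between Slc16a14 and A530032D15Rik, 8 regions covered 53.1% of 153 kb. Slc16a14 belongs to the monocarboxylate transporter family. That interval tied with 4 others at 8 regions and was placed first by the length its regions covered. The longest run of regions, each within 20 kb of the next, held 18 over 260 kb on chromosome 13 from 65425401 to 65685800.

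**Figure D5:**
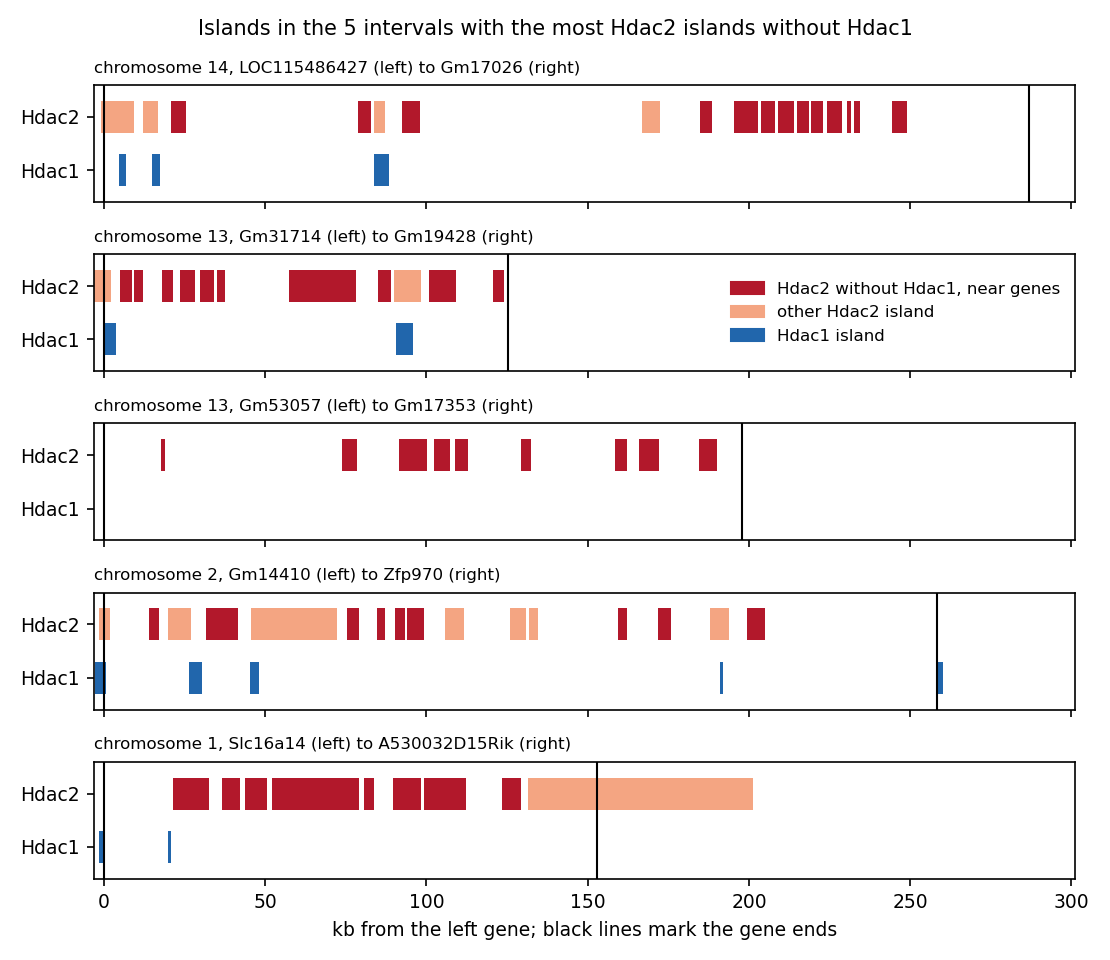
Hdac2 and Hdac1 islands (rows in each panel) in the 5 intervals between genes with the most Hdac2 islands without Hdac1, by distance from the left gene in kb (x axis). Dark red bars are the Hdac2 islands without Hdac1, 13, 10, 9, 9 and 8 from the top panel down, orange bars are other Hdac2 islands and blue bars are Hdac1 islands.

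The share with a close neighbour was below that of shared islands and Hdac1 islands without Hdac2. It was above that of other Hdac2 islands without Hdac1. Another region lay within 20 kb of 764 Hdac2 regions without Hdac1 (26.8%, 25.2% to 28.5%). The share was 30.1% for shared islands and 34.4% for Hdac1 islands without Hdac2. For other Hdac2 islands without Hdac1 it was 18.8% in gene deserts and 21.7% at or in genes. Without the 2 Mb bins that held 10 or more regions it was 19.4% for Hdac2 regions without Hdac1. The other classes were not recomputed without those bins, so the contrast with them leaned on a few places. None of these shares was adjusted for the number or density of islands in a class. Runs of 3 or more held 10.9% of Hdac2 regions without Hdac1, 11.9% of shared islands and 12.0% of Hdac1 islands without Hdac2. They held 3.66% of Hdac2 islands without Hdac1 in gene deserts. The longest run was 18 for Hdac2 regions without Hdac1. It was 9 for shared islands and for Hdac1 islands without Hdac2, and 6 in gene deserts. The genes nearest to most regions were Gm17026 (11), Gm14410 (10), Gm19428 (8), and, with 7 each, Gm53057, Zfp970, Gm10377, Gm17353, Gm31714 and Prl2c3, followed by Mup17 and Gm7954 (6 each). Prl2c3 belongs to the prolactin family of placental hormones.

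Kidney genes were next looked up in gene lists, set beside all 20665 protein-coding genes of chromosomes 1 to 19. The lists were chosen with earlier results of these data known. Of all genes 5143 (24.9%) had an Hdac2 region without Hdac1 within 100 kb, and 2125 (10.3%) were the nearest gene of one. Of 31 nephron progenitor genes 11 had a region within 100 kb (35.5%, 21.1% to 53.1%), an interval that includes the share of all genes, and 10 were a nearest gene (32.3%). With only the upper 50% of Hdac2 islands by value, 7 of the 31 had a region within 100 kb, and the share of all genes was not computed for that shorter list. Per Mb of sequence nearest to these genes there were 7.16 Hdac2 regions without Hdac1, 11.7 shared islands and 16.2 Hdac1 islands without Hdac2, against 3.96 Hdac2 regions without Hdac1, 2.87 shared islands and 5.51 Hdac1 islands without Hdac2 over all genes. All 3 classes were therefore denser near progenitor genes than over all genes, and Hdac2 regions without Hdac1 were the fewest of the 3 there. The 7.16 per Mb rested on 19 regions in 2.66 Mb, nearest to 10 genes, with 5 of the regions at Osr1 and 3 at Eya1.

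Signals that progenitors send or receive were among these genes. Rspo3, which strengthens Wnt signalling, had 2 regions on chromosome 10, 4.0 kb from 29436001 to 29440000 at 13.1 kb (6.54e-15) and 5.6 kb at 84.1 kb (1.99e-13). Fgf9, a growth factor that keeps progenitors undifferentiated, had 7.0 kb on chromosome 14 from 58052601 to 58059600, 11.1 kb from the gene on its 5′ side (5.97e-09). Gdnf, the ligand that draws out the ureteric bud, had 6.4 kb on chromosome 15 from 7849601 to 7856000, 12.0 kb beyond its 3′ end (7.83e-09). Its receptor gene Ret, the only one of 21 ureteric bud genes that was a nearest gene, had 5.6 kb on chromosome 6 from 118209401 to 118215000 at 11.7 kb (2.11e-06). Gas1, a membrane protein of mesenchyme that takes part in growth factor signalling, had 9.0 kb on chromosome 13 from 60194401 to 60203400 at 16.9 kb (2.67e-08). Weaker by value were the regions of Traf1 and Fgf20. Traf1, a signalling adaptor, had 2 at 5.35 and 10.4 kb. Fgf20, a growth factor partner of Fgf9, had 1 at 77.0 kb (5.17e-07). The nearest Hdac1 island lay 9.60 kb from the Fgf9 and Gdnf regions, 10.4 kb from the Gas1 region and 10.6 kb from the Ret region. For the Traf1 regions it lay 6.20 and 2.80 kb away, in the order given. It was 36.8 kb from the Fgf20 region, and 73.0 and 65.2 kb from those of Rspo3.

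Among regulators of transcription in the progenitor list, Eya1, a transcriptional cofactor, had 3 regions 49.4 to 91.8 kb away, of which 7.4 kb on chromosome 1 from 14085001 to 14092400 was the strongest (4.74e-18). Six4 had 2.2 kb on chromosome 12 from 73075201 to 73077400 at 22.2 kb (4.12e-11). Meox2, a homeobox gene of mesenchyme, had 2 regions at 25.1 and 38.5 kb. The nearest Hdac1 islands were 50.4 and 2.20 kb from these, in the order given. They were 19.4 kb from the Six4 region and 15.6 to 58.0 kb from the Eya1 regions.

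Osr1, a zinc finger regulator of the earliest kidney mesoderm, had the most regions of any progenitor gene, 5 on chromosome 12. On the side of lower coordinates a region of 1.8 kb lay 66.0 kb away (2.94e-07). On the side of higher coordinates they were 33.1 kb (2.4 kb, 7.17e-09), 43.3 kb (4.0 kb, 0.0340), 48.1 kb (2.4 kb, 1.64e-07) and 97.1 kb away (4.6 kb, 1.64e-07). Closer in were a shared island at 1.301 kb (6.39e-05) and an Hdac1 island without Hdac2 at 2.84 kb (1.05e-14). The 5 regions without Hdac1 thus all lay farther from Osr1 than this shared island and this Hdac1 island. The comparison covered only islands within 100 kb of Osr1. Another Hdac1 island, outside that limit, lay within 10 kb of the region 97.1 kb away, so the order depends on the limit.

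Genes of later and neighbouring cells gave shares on both sides of that of all genes. Of 29 genes of committed cells 5 had a region within 100 kb (17.2%) and 2 were a nearest gene, Hey1, an effector of Notch signalling (6.18e-07, 5.56 kb), and Fgf8, a growth factor needed for nephron formation (6.64e-07, 33.1 kb). Per Mb near committed genes there were 0.759 Hdac2 regions without Hdac1, 3.04 shared islands and 7.59 Hdac1 islands without Hdac2. Of 20 stromal genes 7 had a region (35.0%, 18.1% to 56.7%) and 5 were a nearest gene. These were Cxcl12, a chemokine (6.12e-12), Meis1, a homeobox factor (2.35e-11), Dcn, the matrix proteoglycan decorin (1.41e-09), Tbx18, a T-box factor of ureteral mesenchyme (8.10e-09), and Pdgfra, a growth factor receptor (4.26e-05).

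In the other lists a region lay within 100 kb of 4 of 18 podocyte and tubule genes (22.2%), 3 of 21 ureteric bud genes (14.3%), 4 of 15 endothelial and blood genes (26.7%) and 8 of 29 genes of distant lineages such as neurons and pancreas (27.6%). It was 5 of 30 deacetylase complex genes (16.7%), 4 of 30 cell cycle genes (13.3%) and 3 of 17 ribosomal protein genes (17.6%). Examples by value were Slc5a12, a tubule transporter, Emcn, an endothelial surface protein, the insulin gene Ins2 (3.67e-15, 96.1 kb), Arid4b of the Sin3 complex (1.47e-10, 8.60 kb) and Mycn, a driver of proliferation (2.05e-11, 70.9 kb). The 95% Wilson interval of each list's share included the 24.9% of all genes.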

How the data were processed

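Hdac1 and Hdac2 ChIP-seq was carried out on nephron progenitor cells, with 1 library per antibody. Libraries started from 500 pg of DNA and went through 12 cycles of PCR, with more where the yield was low, per the labels' protocols, so reads are not independent molecules. Per the submitters' processing notes, build mm10 and SICER were used, together with BWA 0.7.5a, bedtools 2.17, SAMtools 1.3.1 and FastQC. SICER settings, background library, depth and treatment of reads that match several places were not given in the sources used here. Each deposited file lists islands with a position and the authors' p-value, which could also be a q-value since no label says. IgG and H3K4me3 control immunoprecipitations were not analysed here. Islands follow a grid of 200 bp, so edges are coarse. Positions are given 1-based.

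Genes and start windows came from RefSeq (GRCm38.p6, the assembly of mm10). Overlaps, distances and densities were computed in Python 3.11.15 with numpy 2.4.6, pandas 2.3.3 and scipy 1.17.1, and start windows were compared with edlib 1.3.9.post1. The steps were tested on simulated data against bedtools 2.31.1. Near copies were windows within 30 edits that shared a run of 16 bases. Shares have 95% Wilson intervals and densities 95% Poisson intervals. With 1 library per antibody, no test between libraries was possible.

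The regions, the 10 gene lists (244 genes) and the 12 symbol families were chosen with earlier results of these data known. Named regions are the 10 with the lowest value, the 5 widest, those at the limits and the 5 intervals with the most regions. Named genes are nearest genes of these, the 10 nearest to most regions, and members of the lists that are a nearest gene. Others are said to be chosen after their values were seen. Base composition, planned for whole islands, could be measured only in start windows, for want of a genome. Alternatives were other limits on distance, gene spans and overlap, a stricter list, all gene types, merged islands and, added after seeing the data, leaving out the densest bins. Chromosomes X and Y are outside the rule. Individual results of some genes are not reported here.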

Additional observations from a re-analysis of the deposited data

Results flagged for a closer look

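Chromosomes X and Y are outside the rule, and islands that meet its other conditions lie there. On chromosome X 273 Hdac2 islands without Hdac1 lay between genes within 100 kb of one, and 672 of 736 Hdac2 islands (91.3%) shared no base with the 470 Hdac1 islands there. On chromosome Y there were 57 such islands, and 111 of 121 Hdac2 islands (91.7%) shared no base with the 17 Hdac1 islands. On chromosomes 1 to 19 the share without Hdac1 was 38.4%. The difference in share was not tested, and the sex of the embryos was not given in the sources used here.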

How the results depend on the processing

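Of 97 values compared over 9 alternatives, 60 stayed within their limits and 37 moved. With the upper 50% of Hdac2 islands only, the number fell to 1297 (2846 as reported), the density to 1.80 per Mb (3.96), the progenitor genes with a region within 100 kb to 7 (11), the share with another region within 20 kb to 12.7% (26.8%), the share overlapping non-coding genes to 14.3% (16.1%) and the share nearest to a listed family to 29.5% (32.5%), while the median width was 4.2 kb (3.8 kb). Fewer islands enter that list by construction. A limit of 50 kb gave a median gene distance of 16.8 kb (24.8 kb), 36.7% nearest to a family, 10.8% nearest to an odorant or vomeronasal receptor gene (8.61%) and 18.03% with an Hdac1 island within 10 kb (16.1%). A limit of 200 kb gave 37.7 kb, 29.2%, 6.80% and 13.95% for the same measures. Gene spans extended by 5 kb gave a distance of 28.8 kb, a density of 4.15 per Mb, 7.62% nearest to receptor genes and 14.7% with Hdac1 within 10 kb. Requiring no Hdac1 within 5 kb gave 3.65 per Mb, 8.89% with Hdac1 within 10 kb and 24.9% with another region within 20 kb. Allowing under 50% covered by Hdac1 gave 4.35 per Mb, 17.7% overlapping non-coding genes and 23.7% with Hdac1 within 10 kb. With all gene types the distance was 18.99 kb and 74.5% were nearest to a family. The family share counts genes with provisional symbols as a family, nearest to 486 regions as reported. Developmental transcription factor genes were nearest to 0.252% (0.878%) and receptor genes to 5.66%. With all gene types 10.5% had Hdac1 within 10 kb and 20.5% another region within 20 kb. Merging islands within 1 kb gave 3.74 per Mb and 20.5% within 20 kb. Without the densest 2 Mb bins, chosen after seeing the data, the distance was 26.9 kb, the non-coding share 12.6%, the family share 24.1% and the share within 20 kb 19.4%, and density was not computed.

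No paired analysis was possible because each antibody has 1 library. Where no cause is named above, the cause was not tested. The depth of the libraries is unknown, so how many weak Hdac1 islands a deeper library would add at these regions cannot be given, and an island missing from the Hdac1 list does not show that Hdac1 was absent.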

Other observations

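The regions of 1 kb or less, 22 of 2846, were chosen for a closer look after their values were seen. Their median value was 5.69e-07, against 7.14e-08 in the 1439 regions over 3 kb and up to 5 kb wide, yet they included some of the strongest of all 2846. Beside those near Olfr854 and Sulf1, a region of 0.4 kb on chromosome 6 from 132463601 to 132464000 had 7.42e-23 and lay 99.5 kb from Gm8882 and 331 kb from the nearest Hdac1 island. A region of 0.8 kb on chromosome 10 from 87999401 to 88000200 had 2.23e-13, 62.4 kb from Igf1, the insulin-like growth factor gene.

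The families with less than 10 Mb of nearest sequence held few islands. Serpin genes, which encode protease inhibitors, were nearest to 13 Hdac2 regions without Hdac1, 0 shared islands and 4 Hdac1 islands without Hdac2. Defensin genes were nearest to 8, 0 and 3 islands of these classes. Cytochrome P450 genes, whose enzymes oxidise drugs, steroids and lipids, were nearest to 17 Hdac2 regions without Hdac1, 7 shared islands and 5 Hdac1 islands without Hdac2. Pramel genes, active in germline and early embryo, were nearest to 10 Hdac2 regions without Hdac1, 1 shared island and 1 Hdac1 island without Hdac2. Genes of keratins and keratin-associated proteins were nearest to 2 Hdac2 regions without Hdac1, 1 shared island and 6 Hdac1 islands without Hdac2, and Klr lectin receptor genes of natural killer cells to 3, 4 and 1 in those classes. Without the 2 Mb bins that held 10 or more regions, 4 regions near serpin genes and 1 near defensin genes were left, against 17 near cytochrome P450 genes, 9 near Pramel genes, 2 near keratin genes and 3 near Klr genes.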
